A study of Mus musculus with 6 samples.

Results

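The potassium channel subunit genes were examined in neural stem cells (NSCs) from a conditional knockout of miR-151. They were defined as the genes of the count table whose mouse symbol begins with Kcn, without *Kcnj10*, *Kcnk9* and *Kcnq1ot1*, and 94 of the 32493 counted genes met this rule. NSCs came from the lateral ventricles of E14.5 mouse embryos on a C57BL/6J background, grew for 3 generations in culture and were then sequenced. The cko embryos were homozygous for a floxed miR-151 locus and carried Emx1-IRES-Cre, which is active in the dorsal telencephalon. The control embryos (ctrl, labelled wt) had both floxed alleles but no Cre. The paper describes ctrl and cko as littermates, but it links no replicate number to a litter. The miRNA gene itself was not among the genes analysed, so the genotype labels could not be checked by it. The labels list 3 libraries per genotype, but the column of ctrl replicate 2 was the mean of the other ctrl columns, rounded up, in 32493 of 32493 genes. It was counted in no n, which left 2 ctrl libraries (replicates 1 and 3) and 3 cko libraries. Nothing in the labels says that replicates came from separate embryos, so p-values here measure only the spread between these libraries.

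Potassium channels let potassium ions leave or enter a cell along their gradient and so set the resting potential and end electrical spikes. Voltage-gated pore subunits (Kcna to Kcnd, Kcnf to Kcnh, Kcnq, Kcns and Kcnv) assemble around a central pore, and several of them are silent on their own and only modify others. Auxiliary subunits (Kcnab, Kcne and Kcnip) tune gating and transport to the membrane. Calcium- and sodium-activated channels (Kcnma1, Kcnn, Kcnt) open on rising ions inside the cell, inward rectifiers (Kcnj) hold the membrane near rest, and two-pore-domain channels (Kcnk) carry leak currents. *Kcnu1* and the Kcnmb beta subunits were counted with the calcium- and sodium-activated class here. Progenitors and glia express many of these genes too, and membrane potential is known to shift as cells move through the cell cycle.

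Total counts ranged from 17883796 to 23335736 per library, so that 3 counts, taken here as the floor of detection, equalled 0.128 to 0.168 normalized CPM (counts scaled to a common library size by TMM). This floor and the counting of reads cover counting error only. Stem cell genes were present in each library, with a summed level of 7 markers between 6940 and 8810 normalized CPM. Several lists moved with genotype. Of 8 proliferation genes 7 were higher in cko (summed level 870 and 1010 in ctrl, 1790 to 2390 in cko), of 12 oligodendrocyte lineage genes 7 were lower and 2 higher (3920 and 4580 against 3790 to 3930), and of 7 astrocyte genes 4 were lower (2610 and 1700 against 773 to 1360). Of 8 tested neuronal genes 3 were higher and 1 lower, with summed levels of 1160 to 1350 over all libraries. Microglial markers summed to at most 0.959 normalized CPM with *Cx3cr1* at 0, the 4 endothelial markers to at most 6.70 with *Cdh5* at 0, and *Acta2* of the mural list reached at most 0.426. The mural list summed to 195 to 391, nearly all of it *Cspg4*, and the fibroblast list to 149 to 268, nearly all of it *Pdgfra*, both also genes of the oligodendrocyte lineage. *Xist*, present in every library, was lower in cko (2885 and 2554 against 786 to 893 normalized CPM), and 4 Y-linked genes, also present in every library, were higher. Their part in the results below was not tested. In bulk RNA, fewer cells of a type and less RNA per cell cannot be told apart.

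Promoter sequence is shown for 3 of the members that the results turn on. These are the Shaker-type pore genes *Kcna2*, called lower in cko, and *Kcna5*, with counts only in cko libraries, and *Kcnn3*. *Kcnn3* was the member called in the same direction under each setting tried. Each run is the 300-base RefSeq window around the annotated start, on GRCm38.p6, and is written 5′ to 3′ on the strand of the gene. Capitals mark matches, on either strand, to CAGCTG (an E-box) or TGGGAA (the core bound by RBPJ, the DNA-binding partner of Notch). CATTGT (a SOX core) and TATAAA (the TATA box) were searched too and had no match in these 3 windows. None of these 4 motifs overlapped another in these windows.
Kcna2, chr3:107101317-107101616, plus strand: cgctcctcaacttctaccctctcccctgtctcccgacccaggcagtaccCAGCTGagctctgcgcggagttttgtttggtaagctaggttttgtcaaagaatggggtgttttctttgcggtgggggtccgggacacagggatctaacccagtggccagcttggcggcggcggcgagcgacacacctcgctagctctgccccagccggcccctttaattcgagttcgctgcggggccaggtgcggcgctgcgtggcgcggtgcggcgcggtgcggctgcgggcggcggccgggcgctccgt
Kcna5, chr6:126535506-126535805, minus strand: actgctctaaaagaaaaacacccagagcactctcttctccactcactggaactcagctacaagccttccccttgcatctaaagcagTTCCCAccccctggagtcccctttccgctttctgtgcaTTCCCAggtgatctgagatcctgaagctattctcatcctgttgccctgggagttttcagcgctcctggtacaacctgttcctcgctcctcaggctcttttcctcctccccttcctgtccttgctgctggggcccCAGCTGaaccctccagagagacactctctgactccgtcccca
Kcnn3, chr3:89519914-89520213, plus strand: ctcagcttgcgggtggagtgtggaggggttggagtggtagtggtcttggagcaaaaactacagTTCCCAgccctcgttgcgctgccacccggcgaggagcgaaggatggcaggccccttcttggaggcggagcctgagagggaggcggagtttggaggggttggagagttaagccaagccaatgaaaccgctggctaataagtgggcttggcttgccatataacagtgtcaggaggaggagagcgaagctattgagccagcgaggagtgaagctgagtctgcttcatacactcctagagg

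The *Kcna2* window held 31 CpG dinucleotides and 1 E-box. The *Kcna5* window held 4 CpGs, 1 E-box and 2 RBPJ cores, and the *Kcnn3* window held 11 CpGs and 1 RBPJ core. Over 32841 RefSeq promoters of this length the median was 7 CpGs, an E-box was present in 16.3% and an RBPJ core in 25.6%. RefSeq windows were matched for 70 of the 94 members, and in their 95 windows the E-box was present in 25.3%, the RBPJ core in 27.4%, the SOX core in 7.37% and the TATA box in 5.26% (12.6% and 13.6% of all promoters for the last pair). These matches are letters in a window and say nothing about binding.

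Of the 94 members, 63 had 10 or more counts in at least 1 library, and 62 passed the filter on low counts and were tested. By class, 27 of 39 voltage-gated pore subunits, 8 of 11 auxiliary subunits, 9 of 12 calcium- and sodium-activated members, 8 of 14 inward rectifiers and 7 of 13 two-pore-domain channels could be tested. The remaining 5 symbols are *Kcnrg*, a regulator, and 4 antisense transcripts, and 3 of these 5 were tested. *Kcnk16*, *Kcnmb1* and *Kcns3* had 0 counts in all 5 libraries. All 3 Kcns genes, 3 of 4 Kcng genes, 3 of 4 Kcne genes and 3 of 4 Kcnmb genes fell below the filter. *Kcnj8*, the pore subunit of vascular potassium channels that respond to ATP, had 2 counts in ctrl library 1 and 0 in the others. *Kcng2*, a silent pore subunit, was the only member with at least 10 counts in some library that was not tested. Its counts were 8 and 16 in ctrl and 1, 5 and 4 in cko NSCs.

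Levels differed widely between members. Per kb of exon, so that genes of different length can be compared, *Kcnip3* had the highest mean over the 5 libraries, 45.5 normalized CPM per kb. It encodes a calcium-binding protein that associates with Shal-type channels and can also act in the nucleus. *Kcna2* followed at 35.5, but the order at the top differed by genotype, with *Kcna2* at 45.8 above *Kcnip3* at 34.2 in ctrl and *Kcnip3* at 53.1 above *Kcna2* at 28.7 in cko. Next in the mean over the 5 libraries came the Shal-type genes *Kcnd2* at 28.6 and *Kcnd3* at 21.4 and the Shaw-type gene *Kcnc1* at 20.8 normalized CPM per kb. The order of their ctrl means rested on ctrl library 3, as ctrl library 1 alone had the order of the cko means. In ctrl *Kcnd2*, *Kcnd3* and *Kcnc1* stood at 23.6, 24.6 and 24.5 normalized CPM per kb, whereas in cko they stood at 31.9, 19.3 and 18.3. *Kcnk2*, a leak channel opened by stretch, led its class at 17.6, and *Kcnj16*, a rectifier subunit known from astrocytes, led the rectifiers at 11.3 normalized CPM per kb. Of the ion-activated channels *Kcnn2* had the highest mean (6.22 normalized CPM per kb), with 7.22 in cko. In the ctrl mean *Kcnn3* at 4.91 lay slightly above *Kcnn2* at 4.70, but in ctrl library 1 alone *Kcnn2* was the higher. *Kcna5*, at 0.122, was near the bottom.

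**Figure D1:**
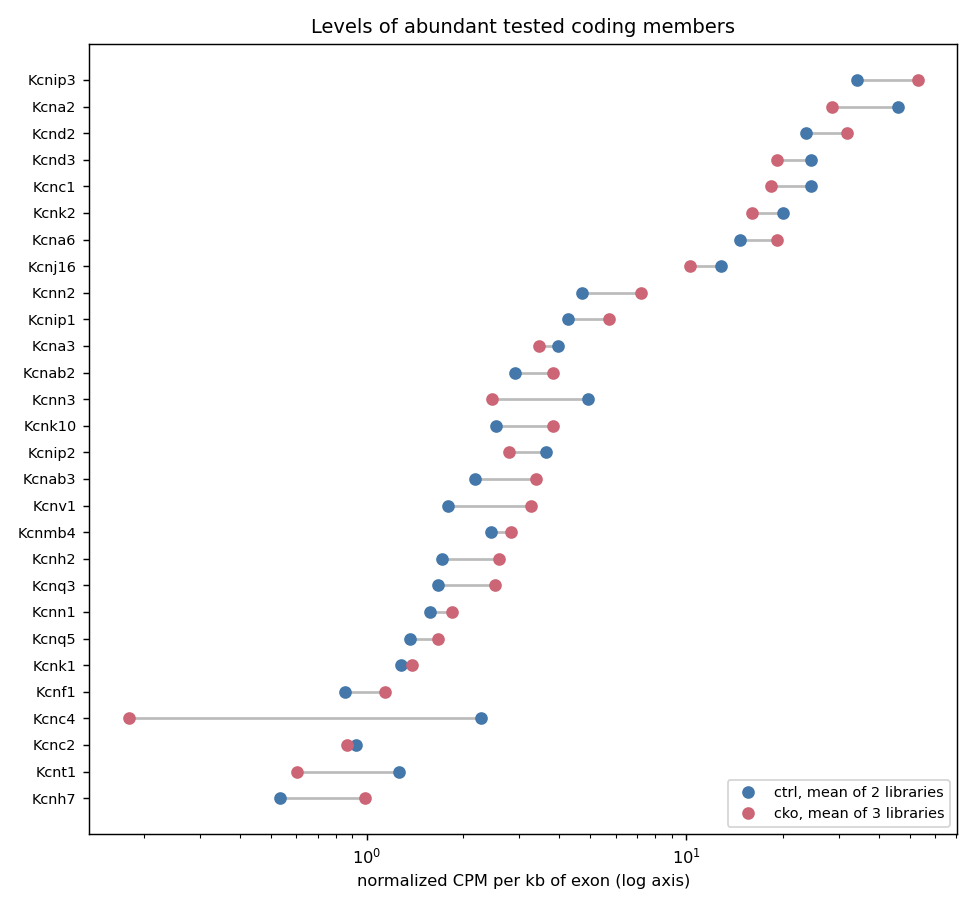
Mean level per genotype of 28 abundant tested coding members, in normalized CPM per kb of exon on a log axis, with blue points for the 2 ctrl and red points for the 3 cko libraries. Mean *Kcnc4* fell from 2.27 to 0.179 normalized CPM per kb and *Kcnn3* from 4.91 to 2.46. The ctrl mean of *Kcnc4* rests on ctrl library 3 (15.2 normalized CPM, against 1.44 in ctrl library 1).

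In cko NSCs, 5 members rose and 4 fell at an adjusted p under 0.05 (edgeR quasi-likelihood test, Benjamini-Hochberg over the 16710 tested genes). The 5 higher members make 8.06% of the 62 tested, against 7.86% of all tested genes, and the 4 lower members make 6.45%, against 8.57%. One of the 5 higher members, *Kcna5*, passed the filter only through its cko counts, so its call is no test, and the 8.06% includes it. The median log2 fold change of the tested members was 0.215, with 36 above 0 and 26 below, beside -0.003 over all tested genes. In 19 members every cko library lay above both ctrl libraries and in 11 every cko library lay below them, which is 30.6% and 17.7% of the tested members against 25.4% and 24.2% of all tested genes. The share of members called, beside that of all genes, depended on the libraries used. Where 1 ctrl library was left, it was assumed to vary like the cko ones. Without cko replicate 2, edgeR called 0 members higher and 1 lower, which is 0% and 1.61% against 1.95% and 2.55% of all genes. At an unadjusted p under 0.05 there were 9 and 5 members, and the share of all genes was not computed at that threshold. Without cko replicate 3 it called 3 and 2 members, which is 4.84% and 3.23% against 2.06% and 2.80% of all genes. Without ctrl replicate 1 it called 11 higher (17.5% against 9.74%) and 9 lower (14.3% against 11.9%). Without ctrl replicate 3 it called 11 higher (17.7% against 10.3%) and 7 lower (11.3% against 10%). None of the 9 called members had 5% or more of its exon sequence shared with another annotated gene. All of the higher members and *Kcna2* and *Kcnc4* among the lower ones encode voltage-gated pore subunits, and the remaining 2, *Kcnn3* and *Kcnt1*, open on calcium and sodium. Pore subunits made up 27 of the 62 tested members, and the 5 higher members include *Kcna5*. DESeq2 also called the auxiliary *Kcnip3* and the antisense *Kcnmb4os2* higher.

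**Figure D2:**
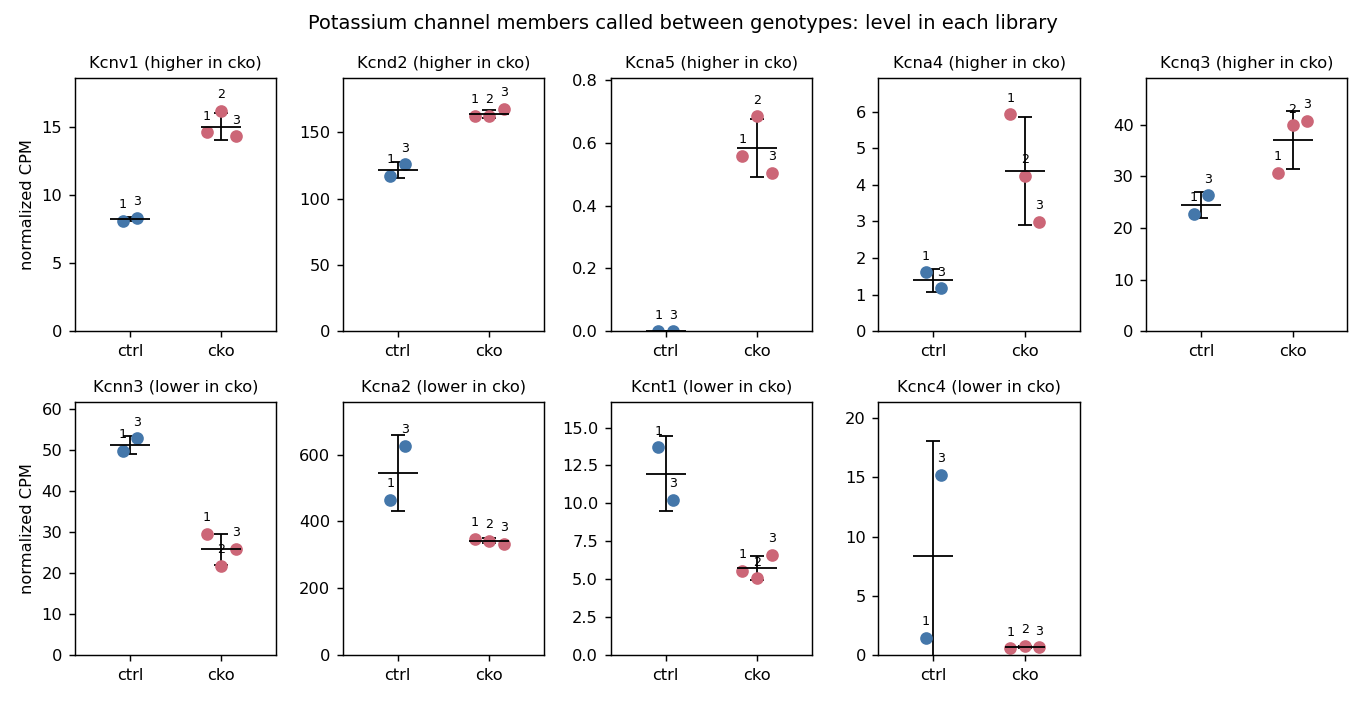
Normalized CPM of the 9 called members in each library, numbered by replicate, with the mean (bar) and SD (whiskers) of 2 ctrl and 3 cko libraries. All 9 members separate the genotypes, and the ctrl libraries of *Kcnc4* stood far apart, at 1.44 and 15.2, so that its lower whisker runs below the axis.

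*Kcnv1* (ENSMUSG00000022342, chromosome 15, 45106284 to 45114920) had the smallest p among the higher members. Its product forms no channel alone and joins other voltage-gated subunits, whose currents it alters. It stood at 8.11 and 8.31 normalized CPM in ctrl libraries 1 and 3 and at 14.6, 16.1 and 14.3 in cko libraries 1 to 3. Its mean of 8.21 ± 0.141 (SD, n = 2) rose to 15.0 ± 1.00 (SD, n = 3), which is 0.87 on the log2 scale (log2FC, SE 0.137, edgeR adjusted p = 0.00760). Each cko library lay well above both ctrl libraries, and the adjusted p in edgeR was 0.0565 without cko replicate 2.

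*Kcnd2* (ENSMUSG00000060882, chromosome 6, 21215503 to 21729805) encodes a Shal-type pore that carries a fast, transient current. Its ctrl libraries held 117 and 126 normalized CPM, and its cko libraries 163, 162 and 168. The rise was small but larger than the spread, with log2FC = 0.43 (SE 0.0725, edgeR adjusted p = 0.00931), and was not called without cko replicate 2 (adjusted p = 0.0629) or 3 (adjusted p = 0.0691). The other Shal-type genes lay on the other side of 0. *Kcnd3* showed a log2FC of -0.35 (edgeR adjusted p = 0.111) and the X-linked *Kcnd1* one of -0.85 (adjusted p = 0.0648). *Kcnd3* stood at 198 and 274 in ctrl and at 177, 184 and 193 normalized CPM in cko NSCs. Neither of them passed the threshold in edgeR, and DESeq2 called *Kcnd1*. The log2FC of *Kcnd3* was -0.579 against ctrl replicate 3 alone and -0.098 against ctrl replicate 1 alone, so its size depended on the ctrl library used.

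The Shal-type pores work with the Kcnip proteins, which bind calcium. *Kcnip3* stood at 87.9 and 155 normalized CPM in ctrl, against 171, 203 and 191 in cko. All cko libraries were higher, but the ctrl libraries were wide apart and the log2 fold change of 0.64 did not pass the threshold (edgeR adjusted p = 0.0853). *Kcnip1* showed a log2FC of 0.42 (adjusted p = 0.114), *Kcnip2* of -0.40 (adjusted p = 0.391) and *Kcnip4* of -0.21 (edgeR adjusted p = 0.619). The cytoplasmic beta subunits of Shaker-type channels, *Kcnab1*, *Kcnab2* and *Kcnab3*, had log2FC values of 0.62, 0.40 and 0.64, with every cko library above both ctrl libraries in all 3. Of all tested genes 25.4% separated in this way. None of these 3 beta subunits was called in the main comparison (edgeR adjusted p = 0.258, 0.0806 and 0.139). *Kcnab2*, the most abundant of them per kb, was measured at 14.6 and 17.8 normalized CPM in ctrl and at 20.0, 21.4 and 22.9 in cko NSCs (edgeR adjusted p = 0.0806). Of the 8 tested auxiliary subunits none was called in either direction by edgeR in the main comparison, and at an unadjusted p under 0.05 there were 4 above and 1 below 0. DESeq2 called *Kcnip3* of these, and no other auxiliary subunit.

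The Shaker-type genes were called in both directions. *Kcna2* (ENSMUSG00000040724, chromosome 3, 107101146 to 107115005) encodes a delayed rectifier best known from axons, and by CPM it had more reads than any other member. It was measured at 465 and 626 normalized CPM in ctrl and at 349, 342 and 334 in cko NSCs. The cko libraries lay close together and below both ctrl libraries, and the log2 fold change was -0.68 (SE 0.122, edgeR adjusted p = 0.0121). Its size depended on which ctrl library was used, with -0.443 without ctrl replicate 3 and -0.886 without ctrl replicate 1, and the call was lost without cko replicate 2 (edgeR adjusted p = 0.0704) or 3 (0.0713). *Kcna6*, the Shaker-type gene next in abundance, was measured at 106 and 69.1 normalized CPM in ctrl and at 133, 107 and 102 in cko NSCs, and the groups overlapped (log2FC 0.38, edgeR adjusted p = 0.212). Part of its exon sequence is shared with a transcript on the opposite strand, and whether strand was used in counting is not given in the sources used here.

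*Kcna4* (ENSMUSG00000042604, chromosome 2, 107290639 to 107298502) encodes a Shaker-type pore that inactivates quickly. Its counts were 37 and 22 in ctrl and 106, 99 and 65 in cko libraries, or 1.61 and 1.17 against 5.92, 4.24 and 2.98 normalized CPM. All cko libraries were higher, but they spread over a wide range. The log2 fold change was 1.63 (SE 0.362, edgeR adjusted p = 0.0241), and the call was lost without cko replicate 1 (adjusted p = 0.0597) or 2 (adjusted p = 0.0888). *Kcna5* (ENSMUSG00000045534, chromosome 6, 126532551 to 126535412), a delayed rectifier known from heart and from dividing cells, had 0 counts in both ctrl libraries and 10, 16 and 11 in the cko libraries. The lowest cko level was at least 3.16-fold higher than 3 counts in the shallower ctrl library. As the gene passed the filter only through cko, where it is high, this is a description and its edgeR call is no test, and DESeq2 gave no adjusted p for it on the 5 libraries. Its level in cko, 0.559, 0.685 and 0.505 normalized CPM, was among the lowest of the tested members.

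*Kcna5* lies with *Kcna1* and *Kcna6* within 208 kb of chromosome 6 (126532551 to 126740674, GENCODE M21 on GRCm38), and neither neighbour was called. *Kcna1* had 12 and 5 counts in ctrl and 14, 6 and 12 in cko libraries (edgeR adjusted p = 0.728). *Kcna2* lies with *Kcna3* and *Kcna10* within 160 kb of chromosome 3. *Kcna3*, a pore known from lymphocytes and microglia, showed a log2FC of -0.19 (edgeR adjusted p = 0.552), and *Kcna10* had at most 5 counts. *Kcnc4*, the next Kcn gene on this chromosome, was also lower, and from *Kcna3* to *Kcnc4* the genes span 423 kb.

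*Kcnq3* (ENSMUSG00000056258, chromosome 15, 65986387 to 66286642) encodes a subunit of the M-current, a slow brake on firing that closes under muscarinic signals. It was measured at 22.7 and 26.3 normalized CPM in ctrl and at 30.6, 39.8 and 40.7 in cko NSCs. Libraries 2 and 3 of cko were higher than library 1, and none overlapped with ctrl. The log2 fold change was 0.60 (SE 0.147, edgeR adjusted p = 0.0334), and it did not pass without ctrl replicate 1 (adjusted p = 0.0721) or without cko replicate 2 (0.138) or 3 (0.137). *Kcnv1* and *Kcnq3* both lie on chromosome 15, where 3 members were tested, a grouping seen only after the values were known. On chromosome 3 there were 3 lower among 7 tested members, and on chromosome 6 there were 2 higher among 4, including *Kcna5*, whose call is no test. The share of all genes called on each of these chromosomes was not computed, so no clustering can be read from these counts. The third of chromosome 15, the rectifier *Kcnj4*, showed a log2FC of -0.46 (edgeR adjusted p = 0.457).

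Among the lower members *Kcnn3* (ENSMUSG00000000794, chromosome 3, 89520164 to 89675132) had the smallest p. It encodes a small-conductance channel that opens on intracellular calcium and shapes the pause after a spike. It was measured at 49.7 and 52.8 normalized CPM in ctrl and at 29.5, 21.8 and 25.8 in cko NSCs. The level fell to 50.0% of ctrl, from 51.3 ± 2.18 (SD, n = 2) to 25.7 ± 3.86 (SD, n = 3), with log2FC = -0.999 (SE 0.130, edgeR adjusted p = 0.00415). This was the only member called when cko replicate 2 was left out (log2FC -0.901, edgeR adjusted p = 0.0206). The related genes were not called. *Kcnn2* overlapped between genotypes, with 46.9 and 23.3 normalized CPM in ctrl and 67.4, 46.6 and 47.8 in cko NSCs (log2FC 0.61, edgeR adjusted p = 0.190), *Kcnn1* had 0.23 (adjusted p = 0.480) and *Kcnn4* had -0.63 (adjusted p = 0.320).

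*Kcnt1* (ENSMUSG00000058740, chromosome 2, 25863734 to 25918273) encodes a channel opened by intracellular sodium. It was measured at 13.7 and 10.2 normalized CPM in ctrl and at 5.53, 5.05 and 6.61 in cko NSCs. Every cko library was lower, with log2FC = -1.06 (SE 0.198, edgeR adjusted p = 0.0136, and 0.0704 without cko replicate 2). The only other member of this family, *Kcnt2*, had 14 and 12 counts in ctrl and 28, 32 and 28 in cko libraries. Its log2 fold change of 1.16 had the opposite sign and just missed the threshold (edgeR adjusted p = 0.0607). Whether this pair differed in response was not tested. *Kcnma1*, the large-conductance channel opened by calcium and voltage, showed a log2FC of 0.40 (edgeR adjusted p = 0.345), and *Kcnmb4*, the beta subunit of this channel found in brain, had 0.21 (edgeR adjusted p = 0.456).

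*Kcnc4* (ENSMUSG00000027895, chromosome 3, 107438303 to 107459552) encodes a Shaw-type pore of fast inactivation. Its counts were 33 and 286 in ctrl and 10, 18 and 14 in cko libraries, or 1.44 and 15.2 against 0.559, 0.771 and 0.643 normalized CPM. Ctrl library 3 was 10.6-fold above ctrl library 1, so that the size of the change rests on that library. The log2 fold change was -3.63 (SE 0.868, edgeR adjusted p = 0.0308). Without ctrl replicate 3 it was -1.109 and was not called (adjusted p = 0.134), and the call was also lost without each cko library in turn. The abundant Shaw-type *Kcnc1* differed between the ctrl libraries in the same direction, at 135 and 329 normalized CPM, and the cko libraries lay between them at 160, 183 and 178 (edgeR adjusted p = 0.392). The ctrl libraries of *Kcnc2* differed in the opposite direction, at 10.1 and 3.04 normalized CPM, with the cko libraries between them at 7.4, 5.9 and 5.3. *Kcnc2* showed a log2FC of -0.11 (edgeR adjusted p = 0.896).

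**Figure D3:**
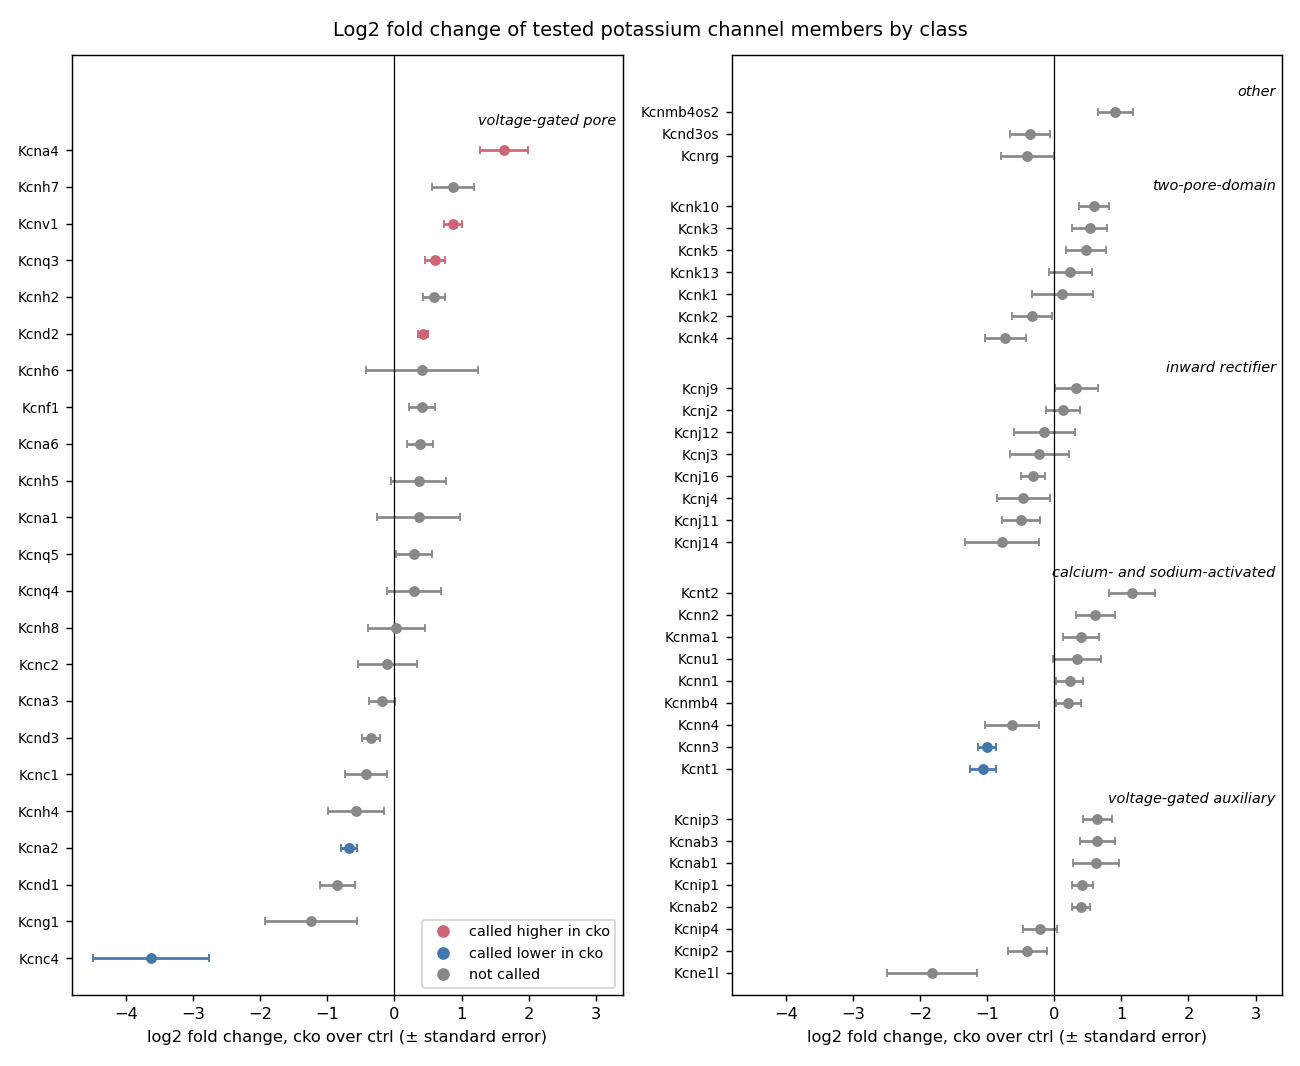
Log2 fold change (cko over ctrl) with its standard error for 58 tested members, grouped by class, in red where called higher, blue where called lower and grey where not called. *Kcna5* is left out because both ctrl libraries had 0 counts, and *Kcnc4* at -3.63 has the widest error of the called members.

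Of the 8 tested inward rectifiers none was called in either direction by edgeR in the main comparison or by DESeq2 on the same libraries. None had an unadjusted p under 0.05 in the main comparison. Their log2 fold changes lay between -0.78 (*Kcnj14*) and 0.33 (*Kcnj9*), with 2 above 0 and 6 below. *Kcnj16* was measured at 39.1 and 61.7 normalized CPM in ctrl and at 42.1, 41.3 and 37.8 in cko NSCs, and the groups overlapped (log2FC -0.32, edgeR adjusted p = 0.257). *Kcnj12* and *Kcnj4*, next in level per kb, had log2FC values of -0.15 (adjusted p = 0.856) and -0.46 (edgeR adjusted p = 0.457).

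Of the 7 tested two-pore-domain channels none was called by edgeR in the main comparison or by DESeq2 on the same libraries. In the main comparison 1 in each direction had an unadjusted p under 0.05. *Kcnk2* was measured at 135 and 63.5 normalized CPM in ctrl and at 98.4, 67.5 and 71.4 in cko NSCs. The cko libraries fell within the range of the ctrl libraries, with a log2 fold change of -0.33 (edgeR adjusted p = 0.480). It changed sign, to 0.304, without ctrl replicate 1, and was -0.774 without ctrl replicate 3. *Kcnk10*, a leak channel of the same branch, lay above both ctrl libraries in every cko library (28.6 and 16.0 against 35.1, 31.6 and 34.2 normalized CPM, log2 fold change 0.59, edgeR adjusted p = 0.111). *Kcnk1* was measured at 1.35 and 4.37 in ctrl and at 3.63, 2.70 and 2.94 in cko NSCs (edgeR adjusted p = 0.880). Among the other symbols *Kcnmb4os2*, antisense to the start of *Kcnmb4*, showed a log2FC of 0.91 (edgeR adjusted p = 0.0524, DESeq2 adjusted p = 0.0198). It shares exon sequence with *Kcnmb4*, so the reads of the pair are uncertain. *Kcnd3os* had -0.36 (adjusted p = 0.449) and *Kcnrg* -0.40 (edgeR adjusted p = 0.527).

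Differences of more than 2-fold between single libraries were more frequent among the members than among all genes in most pairs of libraries, within a genotype as well as between genotypes. Of 57 members with at least 10 counts in every library, 9 differed by more than 2-fold between ctrl libraries 1 and 3, which is 15.8% against 5.00% of the 14673 genes of this depth. These 9 were *Kcnc1*, *Kcnc2*, *Kcnc4*, *Kcng1*, *Kcnh7*, *Kcnj4*, *Kcnk1*, *Kcnk2* and *Kcnn2*. Between pairs of cko libraries 0 to 3 members did, up to 5.26% against 1.01% to 1.70% of genes, and between a ctrl and a cko library 7 to 15 did, 12.3% to 26.3% against 6.79% to 9.50% of genes. Members and all genes shared only the minimum of 10 counts and were not matched in level. Some of the members had few counts, such as *Kcng1* with 12 and 53 in ctrl. Whether level accounts for the difference in shares was not tested. *Kcnh7*, an ether-a-go-go-type pore, had 11.3 and 5.01 normalized CPM in ctrl and 14.1, 13.7 and 17.2 in cko NSCs, and its log2 fold change of 0.87 was not called by edgeR (edgeR adjusted p = 0.102) but was by DESeq2. Its relative *Kcnh2*, the rapid delayed rectifier of the heart, was alike in the ctrl libraries, at 8.46 and 8.15 normalized CPM, and 10.6, 13.7 and 13.3 in cko NSCs. With log2FC 0.59 it fell just short in edgeR (edgeR adjusted p = 0.0501) and was called by DESeq2. *Gfap* also stood apart between ctrl libraries 1 and 3, at 1007 and 178 normalized CPM. Of the other astrocyte markers, *Aldh1l1* (257 and 130.5) and *Aqp4* (97.4 and 55.2) were lower in ctrl library 3. *S100b* (19.2 and 19.7), *Slc1a2* (630 and 645), *Gjb6* (5.7 and 6.6) and *Aldoc* (593 and 661) were not. The part of these markers in the differences was not tested.

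**Figure D4:**
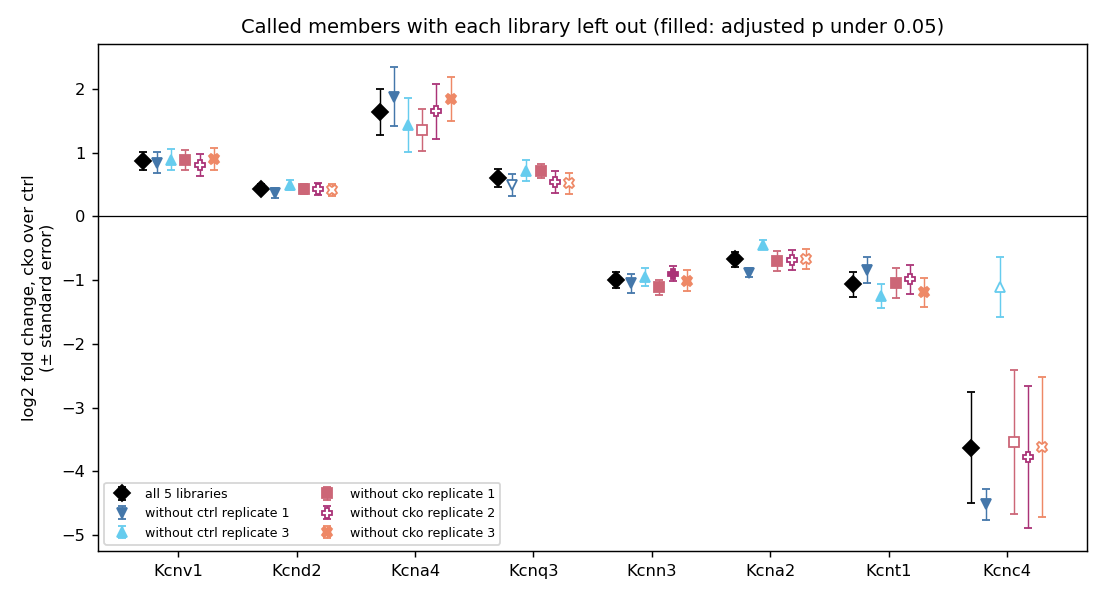
Log2 fold change (cko over ctrl) with its standard error for 8 called members, from all 5 libraries and with each library left out, filled where the adjusted p was under 0.05. The direction held in each case, *Kcnn3* was called in each, and *Kcnc4* moved from -3.63 to -1.109 without ctrl replicate 3.

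Potassium is also moved by proteins outside the Kcn family, and 27 such genes were listed. Of the 17 that could be tested, 5 were lower in cko NSCs and 0 higher at an adjusted p under 0.05 in edgeR (*Atp1b3* alone was higher at an unadjusted p under 0.05), beside the 8.57% and 7.86% of all tested genes given above, and their median log2 fold change was -0.18. The sodium pump exchanges sodium for potassium. *Atp1b2*, a beta subunit of glia, was at 1084 and 1116 normalized CPM in ctrl against 665, 532 and 538 in cko NSCs (log2FC -0.93, edgeR adjusted p = 0.00305). *Atp1b1*, the beta subunit known from neurons, had -0.54 (edgeR adjusted p = 0.0380, not called without ctrl replicate 1 or without any one cko library). The summed level of the astrocyte list given above was lower in the same libraries, and its part in this was not tested.

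*Amigo1*, an adhesion protein that joins delayed rectifier channels, was measured at 38.5 and 37.9 normalized CPM in ctrl and at 22.8, 20.6 and 19.9 in cko NSCs (log2FC -0.86, edgeR adjusted p = 0.00278). *Dpp6* and *Dpp10*, the membrane partners of the Shal-type pores, had log2FC values of -0.04 and -0.05 (adjusted p = 0.876 and 0.836 in edgeR) beside the rise of *Kcnd2*. Of the cation-chloride cotransporters *Slc12a7* fell (log2FC -0.71, edgeR adjusted p = 0.0311), with 20.1 and 28.0 normalized CPM in ctrl and 12.9, 15.0 and 16.0 in cko NSCs, and was not called without ctrl replicate 3 or without any one cko library. *Slc12a2*, which carries potassium inward with chloride, had 0.07 (edgeR adjusted p = 0.647). Both tested HCN channels, which pass potassium and sodium, were not called.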

How the data were processed

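RNA-seq was made from cultured NSCs of E14.5 cko and ctrl embryos. The deposited values are raw read counts per Ensembl gene, which the authors made after filtering (NGSQC) and alignment (HISAT2, mm10). The submitters' processing notes name GRCm39 instead. The counting tool, annotation and strand setting are not given in the sources used here, and the study's methods name TRIzol where the labels name a column kit. Of the 6 deposited columns, ctrl replicate 2 holds the other kind of value, an average of the remaining ctrl columns, and was used only as an alternative.

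Of the 32493 IDs, 31836 were named, placed and measured for exon length with GENCODE M21 (GRCm38). The other 657 held 0.181% to 0.299% of a library's counts. The test was edgeR 4.0.16 under R 4.3.3 (filterByExpr with the genotypes as groups, TMM, quasi-likelihood, 16710 genes), with calls at a Benjamini-Hochberg adjusted p under 0.05. The standard error is the log2 fold change over the root of F. The test was checked on simulated data. Total counts of 17883796 to 23335736 put 3 counts at 0.128 to 0.168 normalized CPM.

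The members and lists were chosen with earlier results of these data known. Named members are those called, the 3 with the highest level per kb in each class, those at 3 counts or fewer in a whole genotype and 10 or more in some library of the other, *Kcna5*, and the called transport genes. Others are given to account for their families, after their values were seen. Alternatives were DESeq2 1.42.0, median-of-ratios factors, a minimum of 10 counts per library or none, each replicate left out, the replicate block, all 6 columns, and the study's threshold (log2 fold change beyond 0.9, unadjusted p under 0.01). Figures used matplotlib 3.10.9. Some members and transport genes entered the fits and counts but are not reported here.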

Additional observations from a re-analysis of the deposited data

How the results depend on the processing

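The called members kept their direction under each alternative in which they were tested. Counts of higher and lower members, 5 and 4 with all 5 libraries, were 8 and 5 with DESeq2 (12.9% and 8.06% of members, against 9.46% and 10.2% of all genes). Without a filter on low counts they were 14 and 11 of 91 (15.4% and 12.1%, against 6.02% and 7.33%). At the study's threshold 3 were higher and 3 lower, and the share of all genes was not computed there. Those 3 higher members were *Kcna4*, *Kcna5*, whose call is no test, and *Kcnmb4os2*, whose reads are uncertain. With the averaged ctrl column included the counts were 16 and 6 in edgeR (26.2% and 9.84%, against 17.6% and 17.1%) and 16 and 7 in DESeq2 (26.2% and 11.5%, against 15.9% and 16.1%). Leaving out 1 library, where a lone ctrl library is assumed to vary like the cko ones, gave 0 to 11 higher and 1 to 9 lower members. The counts in edgeR were 0 and 1 without cko replicate 2 and 3 and 2 without cko replicate 3. At an unadjusted p under 0.05 there were 9 and 5 without cko replicate 2, and the share of all genes was not computed at that threshold. The other potassium transport genes called, 5 in the main comparison, numbered 2 at the study's threshold and 3 to 6 with a library left out. The median log2 fold change stayed between 0.126 and 0.220. With the replicate number as a block, 10 members were higher and 4 lower (16.1% and 6.45%, against 5.49% and 6.37% of all genes). *Kcnip3*, *Kcnk10*, *Kcnmb4os2*, *Kcnn2* and *Kcna6* joined the higher ones, and no call was lost. The shared numbers have no stated meaning, cko replicate 2 had no usable ctrl counterpart, and the difference between libraries 1 and 3 correlated weakly between genotypes (Pearson's r = 0.113 over 16710 genes, not independent of each other). Of the members named by the rule, the log2 fold change crossed 0 with 1 library left out in *Kcnj12* (-0.536 to 0.184), *Kcnj16* (-0.621 to 0.049), *Kcnj4* (-0.95 to 0.202), *Kcnk2* (-0.774 to 0.304) and *Kcnk1* (-0.518 to 1.185). None of these was called in the main comparison. Without a filter on low counts, *Kcnj16* (edgeR adjusted p = 0.0404) and *Kcnk2* (edgeR adjusted p = 0.0104) were called lower. *Kcnc1* and *Kcnc2*, outside the rule, differed between the ctrl libraries in opposite directions, with the cko libraries between them. *Atp1b1*, *Slc12a7* and *Kcnc4* each kept their call in 8 of 12 alternatives. The cause of these changes was not tested. With 2 ctrl libraries, members of few counts can be compared only roughly.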
